A study of Homo sapiens with 6 samples.

Results

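A set of 10 genes of epidermal growth factor receptor (EGFR) signalling was followed in Cisplatin-induced HK-2 cells with and without knockdown of NAT10. They were chosen by name, as the receptor EGFR, its ligands AREG, EREG, HBEGF and TGFA, and the feedback genes DUSP4, DUSP5, DUSP6, SPRY2 and SPRY4, and each of the 10 had 1 entry among the 62754 genes counted. HK-2 is an established line of human proximal tubule epithelial cells. One group received Cisplatin and a negative control siRNA (CP+siNC) and the other received Cisplatin and siRNA against NAT10 (CP+siNAT10), with 3 libraries in each. All 6 libraries came from Cisplatin-treated cells, so the effect of Cisplatin itself cannot be read from them, and the labels give neither a dose nor an exposure time. The libraries held 19321665, 21602988 and 19464027 counted reads in CP+siNC, and 20793709, 21531774 and 25192736 in CP+siNAT10. Nothing in the labels says that the 3 libraries of a group came from separate cultures, so p-values measure the spread between these samples, which may be technical.

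EGFR is a receptor tyrosine kinase of the cell surface. Its ligands are made as membrane-bound precursors and are released by metalloproteases, after which the receptor signals through RAS, RAF and MEK to the kinase ERK. ERK activity in turn raises the transcription of its own inhibitors, among them the dual-specificity phosphatases (DUSP), which remove phosphate from MAP kinases, and the Sprouty proteins (SPRY), which act between the receptor and RAF. In the kidney tubule, EGFR and its ligands are known for their part in the response to injury and in repair.

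The knockdown was checked first. NAT10, an RNA and protein acetyltransferase, stood at 75.8, 71.4 and 73.2 CPM (counts scaled to a common library size) in CP+siNC and at 41.3, 40.5 and 42.5 CPM in CP+siNAT10. Every CP+siNAT10 library lay below every CP+siNC library. The remaining level was 56.4% of the CP+siNC mean, and the log2 fold change was -0.82 (standard error, SE, 0.0426, adjusted p = 2.79e-15, from the quasi-likelihood test of edgeR, adjusted over all tested genes by Benjamini-Hochberg, as for all adjusted p-values here).

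Of the 10 genes, 9 had enough counts to be tested, and DUSP4 was low. At an adjusted p under 0.05, 4 of the 9 were higher in CP+siNAT10 (AREG, EREG, DUSP5 and SPRY4), 2 were lower (DUSP6 and HBEGF) and 3 did not pass (EGFR, TGFA and SPRY2). The same test called 44.1% of all 19874 tested genes, with 21.8% higher and 22.3% lower, so calls of this kind were common in these libraries and the share among 9 genes is not a result about this pathway. The median log2 fold change was 0.12 over the 9 genes and 0.0070 over all tested genes. The 2 groups did not overlap in CPM for 6 of the 9, against 51.4% of all tested genes. The fold changes of the 9 ran from -0.85 to 0.71 on the log2 scale and so stayed under the limit of 1, which 2.33% of all tested genes (464) passed together with the adjusted p. That number of genes rested on the filter for low counts and on how the limit was applied, with 711 when no filter was used, 299 when at least 1 CPM in 3 libraries was required, and 56 when the fold change was tested against 2.

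**Figure D1:**
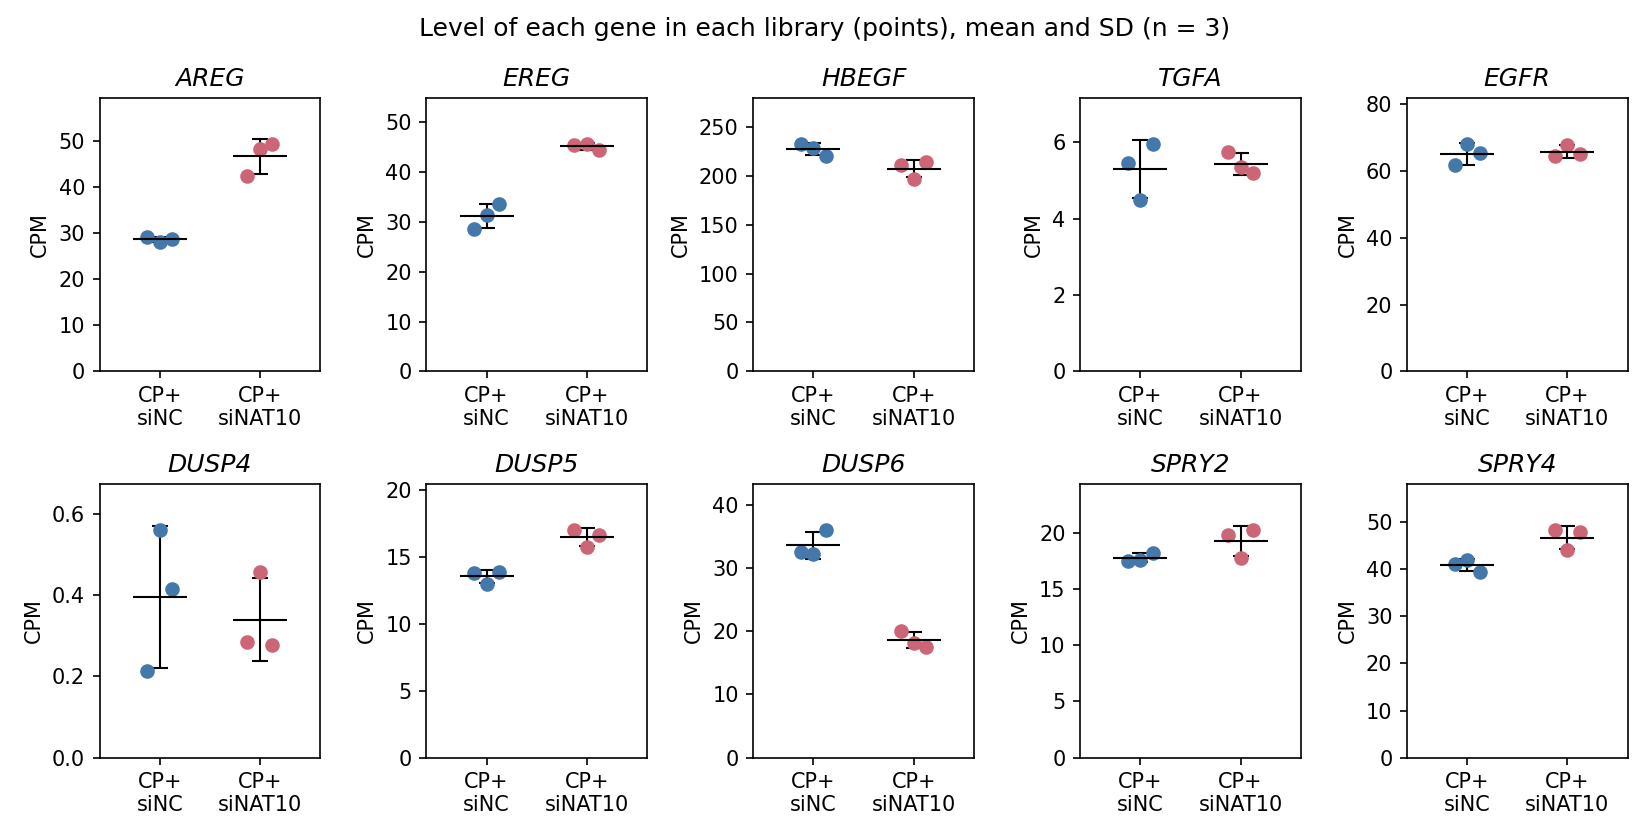
Level of each of the 10 genes in CPM (vertical axes from 0, a scale of its own for each gene) in the 3 CP+siNC libraries (blue) and the 3 CP+siNAT10 libraries (red), with the mean and SD of each group in black. AREG, EREG, DUSP5 and SPRY4 lay higher in all 3 CP+siNAT10 libraries, DUSP6 and HBEGF lay lower in all 3, and the groups overlapped for EGFR, TGFA, DUSP4 and SPRY2.

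Among the ligands, amphiregulin and epiregulin rose after NAT10 knockdown. AREG, which encodes amphiregulin, a ligand of EGFR with lower affinity than EGF, had 29.3, 28.2 and 28.7 CPM in CP+siNC and 42.4, 48.3 and 49.5 CPM in CP+siNAT10. The CP+siNC libraries were close together, the CP+siNAT10 libraries were all higher and more spread, and the groups did not overlap. The mean went from 28.7 ± 0.549 CPM to 46.7 ± 3.78 CPM (SD, n = 3 each), and the log2 fold change was 0.71 (SE 0.0547, adjusted p = 1.52e-11 by edgeR). AREG rose more than any other of the 9 tested genes. These are bulk libraries, so a change in the number of cells that make a transcript and a change in the amount per cell cannot be told apart.

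EREG, which encodes epiregulin, a ligand of both EGFR and ERBB4, had 28.6, 31.3 and 33.5 CPM in CP+siNC and 45.5, 45.7 and 44.4 CPM in CP+siNAT10. Here the spread was wider in CP+siNC, and all 3 CP+siNAT10 libraries were higher than any of CP+siNC. The log2 fold change was 0.54 (SE 0.0518, adjusted p = 1.26e-09 by edgeR).

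HBEGF encodes heparin-binding EGF-like growth factor, whose precursor is also the cell's receptor for diphtheria toxin. The gene lies at chr5:140332843-140346631 on the - strand. It had 232.9, 228.4 and 220.2 CPM in CP+siNC and 210.5, 197.0 and 213.7 CPM in CP+siNAT10. All 3 CP+siNAT10 libraries were lower, though the gap between the lowest CP+siNC library and the highest CP+siNAT10 library was similar in size to the SD within each group. The log2 fold change was -0.13 (SE 0.0357, adjusted p = 0.00308 by edgeR), the smallest in size of the 6 that passed the test.

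TGFA, which encodes transforming growth factor alpha and lies at chr2:70447280-70554193 on the - strand, had 5.47, 4.48 and 5.97 CPM in CP+siNC and 5.75, 5.35 and 5.21 CPM in CP+siNAT10. The groups overlapped, with the lowest and the highest library both in CP+siNC. TGFA had 96 to 132 counts in each library. The log2 fold change of 0.038 had a 95% interval from -0.20 to 0.27 (adjusted p = 0.829 by edgeR), so these libraries do not settle which difference within that range holds. Its sign was not settled either, since it was -0.083 without CP+siNC replicate 2, and -0.00074 when CP+siNAT10 replicate 1 was left out.

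Levels of different genes were compared per kilobase of the gene length given with the counts (RPKM). HBEGF was the most abundant of the 4 ligands in every library, at 76.0 ± 2.15 RPKM in CP+siNC (SD, n = 3), followed by AREG at 17.5 ± 0.334 RPKM, EREG at 5.45 ± 0.431 RPKM and TGFA at 1.08 ± 0.154 RPKM. The order of the 4 was the same in CP+siNAT10, and no 2 neighbours in it overlapped in either group. Within a library the ligands can be set against each other without any scaling between libraries. HBEGF made up 76.5%, 76.4% and 75.0% of the summed ligand RPKM in the CP+siNC libraries and 66.8%, 63.1% and 64.7% in the CP+siNAT10 libraries. AREG made up 17.5%, 17.2% and 17.8% in CP+siNC and 24.5%, 28.2% and 27.3% in CP+siNAT10. The mixture of ligand transcripts thus held a larger part of AREG and a smaller part of HBEGF in each CP+siNAT10 library. The share of EREG was also higher in each, from 4.92% to 5.98% in CP+siNC and from 7.04% to 7.66% in CP+siNAT10, while that of TGFA overlapped between the groups. The summed ligand level was 101.8, 99.9 and 98.2 RPKM in CP+siNC and 105.4, 104.4 and 110.4 RPKM in CP+siNAT10.

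**Figure D2:**
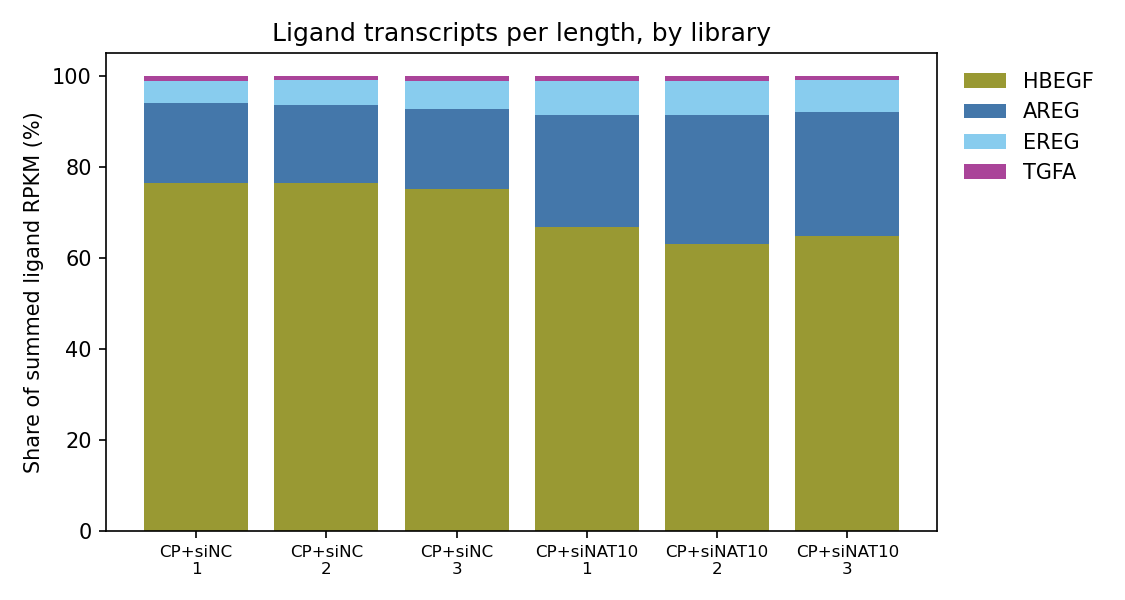
Share of each ligand in the summed RPKM of HBEGF, AREG, EREG and TGFA (vertical axis, percent, from 0), 1 bar per library. The HBEGF part ran from 75.0% to 76.5% in the 3 CP+siNC libraries and from 63.1% to 66.8% in the 3 CP+siNAT10 libraries, and the AREG part was larger in all 3 CP+siNAT10 libraries.

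AREG and EREG lie side by side on chromosome 4, both on the + strand of GRCh38, AREG at chr4:74445134-74455009 and EREG at chr4:74365143-74388751 in GENCODE 29. The first bases of the genes were 80.0 kb apart. BTC, the gene of betacellulin, another EGFR ligand, lies on the other strand, with its lowest coordinate 299.6 kb beyond that of AREG, and EPGN, the gene of epigen, lies 136.7 kb before AREG. BTC had 63, 84 and 69 counts in CP+siNC and 143, 189 and 179 counts in CP+siNAT10. The groups did not overlap, and its log2 fold change was 1.04 (SE 0.123, adjusted p = 4.99e-08 by edgeR). EPGN had at most 2 counts in any library and was not tested. The other genes around them were then taken by position, in a window chosen after these values were seen. Of the 10 tested genes whose lowest coordinate lies within 1000 kb of that of AREG (for genes on the - strand this is the end of the gene), EREG, AREG and BTC were the 3 that rose, 5 did not pass the test, and 2 fell. With 44.1% of all tested genes called, these 5 calls are no result about the region. Those that fell were CXCL8, the gene of the chemokine interleukin 8, with a log2 fold change of -0.77 (SE 0.0490, adjusted p = 2.22e-13 by edgeR), and RASSF6, with -0.79 (SE 0.144, adjusted p = 4.86e-05 by edgeR).

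**Figure D3:**
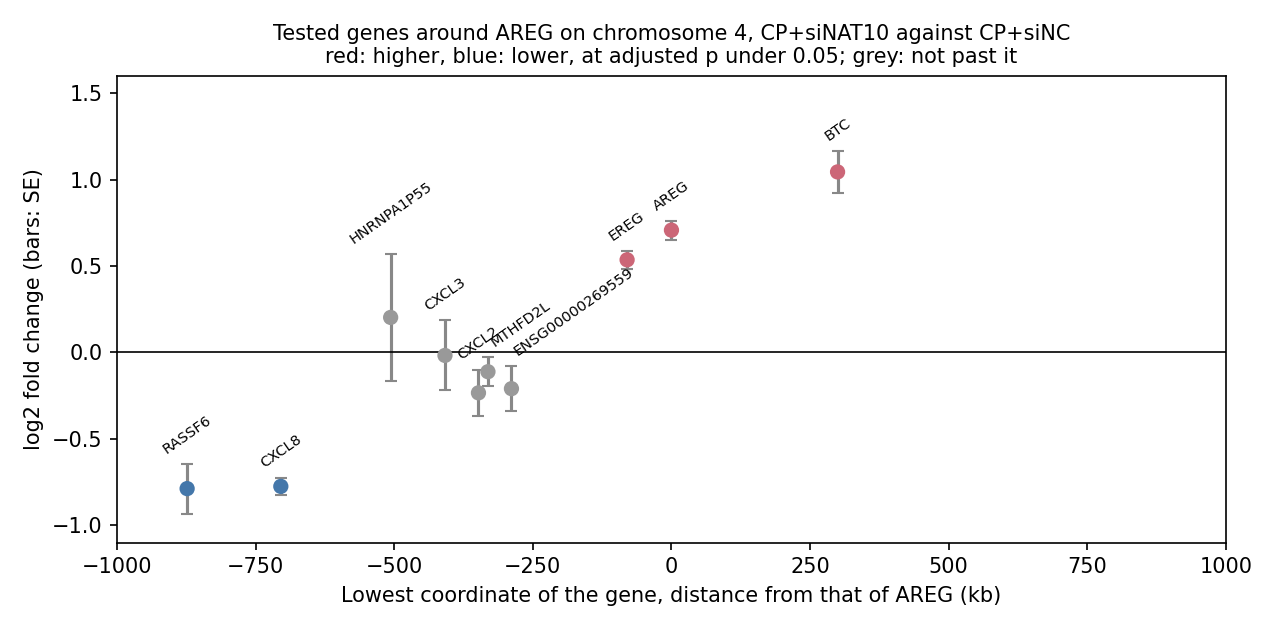
Log2 fold change of CP+siNAT10 against CP+siNC with its SE (vertical axis) for the 10 tested genes within 1000 kb of AREG, by the distance of their lowest coordinate from that of AREG in kb (horizontal axis). The ligand genes EREG, AREG and BTC lay above 0, RASSF6 and CXCL8 lay below it, and the 5 genes in grey did not pass an adjusted p of 0.05.

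The promoters of AREG and EREG, which rose, and of HBEGF, which fell, are shown side by side. They were picked after these changes were seen. RefSeq promoters (GRCh38.p14, from 250 bases before to 50 after each start) were found for 8 of the 10 genes, with more than 1 start for EGFR, TGFA and SPRY2. They were searched on both strands for the TATA box TATAAA, the cAMP response element TGACGTCA, the AP-1 site TGACTCA, the ETS site CCGGAAGT and the GC box GGGCGG. The runs below end just before the first transcribed base in GENCODE 29, which is 2 bases before the RefSeq start for AREG and EREG and 28 bases before it for HBEGF, are written 5′ to 3′ on the strand of the gene, and have matches in capitals (CCGCCC is the GC box on the other strand).
AREG, + strand, chr4:74444886-74445133: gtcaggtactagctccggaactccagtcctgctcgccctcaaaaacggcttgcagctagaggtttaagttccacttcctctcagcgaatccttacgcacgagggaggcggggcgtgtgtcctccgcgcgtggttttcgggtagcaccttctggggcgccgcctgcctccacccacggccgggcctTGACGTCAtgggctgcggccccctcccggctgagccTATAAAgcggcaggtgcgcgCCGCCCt
EREG, + strand, chr4:74364895-74365142: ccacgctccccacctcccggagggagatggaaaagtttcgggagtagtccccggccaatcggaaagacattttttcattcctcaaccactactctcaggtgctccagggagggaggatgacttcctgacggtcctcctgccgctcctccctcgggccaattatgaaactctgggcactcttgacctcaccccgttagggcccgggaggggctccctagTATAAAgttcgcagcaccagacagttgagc
HBEGF, - strand, chr5:140346632-140346853: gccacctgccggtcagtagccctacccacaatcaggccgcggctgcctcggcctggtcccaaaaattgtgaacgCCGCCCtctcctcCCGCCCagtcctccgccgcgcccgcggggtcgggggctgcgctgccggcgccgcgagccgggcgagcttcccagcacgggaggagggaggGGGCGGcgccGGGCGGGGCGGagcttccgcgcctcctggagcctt
AREG and EREG each had TATAAA close to the start, beginning 29 and 32 bases before it, where this and the distances below are counted from the RefSeq start. EPGN had it 29 bases before its start as well. Of the 2 EGFR promoters 1 also held it, 146 and 36 bases before the start, and the BTC promoter did not hold it. Of all 35116 promoters in the table, 11.5% held TATAAA. AREG was the only one of the 8 genes with TGACGTCA, at 65 bases before its start, where 1.85% of all promoters held it. HBEGF had 5 GC boxes, of which 2 share a base, and no TATAAA, but the GC box is not particular to it, since 6 of the 8 genes had at least 1 (AREG, EGFR, HBEGF, SPRY2, SPRY4 and TGFA), as did 45.0% of all promoters. TGACTCA was found in 1 of the 2 EGFR promoters (4.95% of all promoters), and CCGGAAGT in none of the 8 genes (4.14%). The DUSP6 promoter held none of the 5 motifs. A match describes the letters in the window only, and whether any motif bears on the changes in level was not tested.

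The receptor itself did not pass the test. EGFR, at chr7:55019021-55211628 on the + strand, had 61.8, 68.2 and 65.5 CPM in CP+siNC and 64.5, 67.9 and 65.0 CPM in CP+siNAT10, and all 3 CP+siNAT10 libraries lay within the range of CP+siNC. The log2 fold change was 0.012 (SE 0.0427, adjusted p = 0.850 by edgeR) with a 95% interval from -0.072 to 0.096. Its sign turned when CP+siNC replicate 1 was left out (-0.027), and also when CP+siNAT10 replicate 2 was (-0.0098). The transcript on the other strand of EGFR, EGFR-AS1, had 21 to 33 counts in each library, against at least 1163 for EGFR.

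Of the feedback phosphatases, DUSP6 fell and DUSP5 rose. DUSP6, a cytoplasmic phosphatase with a preference for ERK, had 32.5, 32.1 and 36.0 CPM in CP+siNC and 20.1, 18.2 and 17.6 CPM in CP+siNAT10. All 3 CP+siNAT10 libraries lay far below CP+siNC, with a mean of 55.4% of the CP+siNC mean. The log2 fold change was -0.85 (SE 0.0608, adjusted p = 2.80e-12 by edgeR), the largest in size among the 9 tested genes. DUSP6 lies at chr12:89347232-89353271 on the - strand, and an unnamed gene, ENSG00000274021, lies on the + strand across its 5′ end. In GENCODE 29, 1875 of the 2257 exon bases of that gene are also exon bases of DUSP6. The deposited length of DUSP6 is 3859 bases and its deposited end is 89352497, while its exons in GENCODE 29 cover 4632 bases. The overlap between the 2 genes as counted may therefore be smaller. ENSG00000274021 had 472, 523 and 542 counts in CP+siNC and 315, 296 and 331 counts in CP+siNAT10, a log2 fold change of -0.90 (SE 0.0686, adjusted p = 1.03e-11 by edgeR). The libraries were prepared with a stranded kit, but whether strand was used in counting is not given in the sources used here, so reads from the 2 genes may not have been told apart.

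DUSP5, a nuclear phosphatase that acts on ERK, lies at chr10:110497838-110511544 on the + strand and had 13.8, 13.0 and 13.9 CPM in CP+siNC and 17.1, 15.7 and 16.7 CPM in CP+siNAT10. The groups did not overlap, and the rise was smaller than the fall of DUSP6, with a log2 fold change of 0.28 (SE 0.0696, adjusted p = 0.00136 by edgeR). Set against each other within each library, DUSP6 was above DUSP5 per length in all 3 CP+siNC libraries, with a log2 ratio of RPKM of 0.63, 0.70 and 0.77. In the CP+siNAT10 libraries the order was turned, with log2 ratios of -0.37, -0.40 and -0.53. DUSP4, another nuclear phosphatase of ERK and related kinases, at chr8:29333064-29350668 on the - strand, had 4, 12 and 8 counts in CP+siNC and 6, 10 and 7 counts in CP+siNAT10. Only 2 libraries reached 10 counts, so DUSP4 is reported as low and no difference was detectable at this depth.

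Of the Sprouty genes, SPRY4 rose. It lies at chr5:142310427-142326455 on the - strand, and SPRY4-AS1 on its other strand had 6 to 11 counts in each library. SPRY4 had 41.1, 42.0 and 39.4 CPM in CP+siNC and 48.4, 44.0 and 47.8 CPM in CP+siNAT10, and the groups did not overlap. The log2 fold change was 0.19 (SE 0.0480, adjusted p = 0.00149 by edgeR). SPRY2, at chr13:80335976-80340951 on the - strand, had 17.5, 17.6 and 18.2 CPM in CP+siNC and 19.8, 17.7 and 20.2 CPM in CP+siNAT10. CP+siNAT10 replicate 2 lay among the CP+siNC libraries and the other 2 lay above them. The log2 fold change of 0.12 did not pass the test (SE 0.0655, adjusted p = 0.146 by edgeR) with all libraries, and leaving out CP+siNAT10 replicate 2 it was 0.18 and passed (adjusted p = 0.0421). The adjusted p of SPRY2 ranged from 0.0421 to 0.428 over the 13 alternatives.

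Among all 10 genes, the order per length in CP+siNC was HBEGF, AREG, DUSP6 (8.70 ± 0.558 RPKM), SPRY4 (6.23 ± 0.203 RPKM), SPRY2 (5.53 ± 0.128 RPKM), EREG, DUSP5 (5.35 ± 0.183 RPKM), EGFR (4.09 ± 0.204 RPKM), TGFA and DUSP4 (0.0545 ± 0.0240 RPKM). SPRY2, EREG and DUSP5 overlapped with their neighbours in this order, and the rest did not. The order depends on the lengths used. For EGFR the deposited length is 15941 bases, while its exons in GENCODE 29 cover 12521, and with exon bases for all 10 genes EGFR stood at 5.21 ± 0.260 RPKM in CP+siNC and overlapped with EREG and DUSP5 (5.19 ± 0.178 RPKM), so the order of these 3 is not settled. In CP+siNAT10, DUSP6 stood at 4.82 ± 0.343 RPKM and EREG at 7.91 ± 0.121 RPKM, so that EREG came next after AREG, and DUSP6 lay below SPRY4, DUSP5 and SPRY2. With exon bases this held as well, and DUSP6 (4.02 ± 0.286 RPKM) then also lay below EGFR (5.26 ± 0.149 RPKM).

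The genes most like AREG and DUSP6 were sought among 12303 other tested genes whose mean reached 5 CPM, by the root mean square difference of log2 CPM over the 6 libraries after centring on the CP+siNC mean. For AREG these were TVP23B (0.0358), TPM4P2 (0.0381) and TNRC6C (0.0423). TPM4P2 is a pseudogene and TVP23B has a close copy, so their reads may be shared with other genes. For DUSP6 the nearest was ENSG00000274021 (0.0323), the gene on its other strand described above, followed by TTC33 (0.0445) and DNAJB4 (0.0458).

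The rest of the pathway was described from lists of 65 further genes, of which 59 could be tested. Of these 59, 20 were higher and 14 were lower in CP+siNAT10, with a median log2 fold change of 0.034, where 21.8% of all tested genes were higher and 22.3% lower. Of these 34 calls, 25 held in all 13 alternatives and 9 were lost in at least 1, and 8 of the 9 are named below. The other examples were picked after their values were seen and held in all 13, so they are steadier than the lists as a whole. Of the 7 other ligands of the EGF family, 4 were tested, and 2 rose, 1 fell and 1 did not pass. Those that rose were BTC and EGF, the founding ligand, which had only 44 to 79 counts in each library and a log2 fold change of 0.40 (SE 0.157, adjusted p = 0.0398 by edgeR). The call of EGF was lost in 8 of the 13 alternatives, among them those leaving out CP+siNC replicate 2 (0.31) or 3 (0.41) or CP+siNAT10 replicate 1 (0.43), 2 (0.40) or 3 (0.37), with adjusted p-values from 0.0240 to 0.189 over all alternatives. NRG4, a neuregulin that binds ERBB4, fell, with a log2 fold change of -0.64 (SE 0.139, adjusted p = 0.000401 by edgeR). Of the 3 other receptors, 2 were tested and 1 rose, while ERBB4 had at most 2 counts in any library. The 1 was ERBB2, with a log2 fold change of 0.13 (SE 0.0408, adjusted p = 0.0130 by edgeR), and its call was lost with DESeq2 (0.12, adjusted p = 0.0607) and when CP+siNC replicate 3 was left out (0.097, adjusted p = 0.0993), where the adjusted p ranged from 0.00200 to 0.0993 over the alternatives.

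Among 6 genes of ligand shedding, 2 rose, 1 fell and 3 did not pass, where 21.8% of all tested genes were higher and 22.3% lower, shares that apply to the inhibitors below as well. ADAM17, the main sheddase of amphiregulin, epiregulin and HB-EGF, fell from 29.3 ± 2.46 to 22.4 ± 1.42 CPM (SD, n = 3), a log2 fold change of -0.39 (SE 0.0621). RHBDF2, which encodes a partner needed for the maturation of ADAM17, rose, with a log2 fold change of 0.44 (SE 0.104). ADAM10, another sheddase, rose by 0.17 (SE 0.0470), and its call was lost when CP+siNAT10 replicate 2 was left out (0.12), which took the count of rises to 1. Leaving out CP+siNAT10 replicate 1 took the count of falls to 2. Among 5 tested inhibitors of the receptor, 1 rose and 2 fell. ERRFI1, a feedback inhibitor that binds the kinase domain of EGFR, fell by 0.27 on the log2 scale (SE 0.0378). The ubiquitin ligases that mark EGFR for degradation moved in opposite directions, with a log2 fold change of -0.39 for CBL (SE 0.0705) and 0.83 for CBLB (SE 0.101).

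In the cascade from the receptor to ERK, all 20 genes were tested, and 9 rose, 3 fell and 8 did not pass, against 21.8% higher and 22.3% lower of all tested genes. NRAS, one of the RAS switch proteins, went from 59.8 ± 1.81 to 30.4 ± 0.586 CPM (SD, n = 3), a log2 fold change of -0.97 (SE 0.0457). The adaptor SHC1 and HRAS were the others that fell, with log2 fold changes of -0.28 (SE 0.0355) and -0.29 (SE 0.0594). The rises included the kinase BRAF, with a log2 fold change of 0.41 (SE 0.0724), and the scaffold KSR1, with 0.94 (SE 0.159). RASA1 and RASA2, which switch RAS off, also rose, by log2 fold changes of 0.24 (SE 0.0483) and 0.45 (SE 0.0729). The rise of GAB1 (0.29, SE 0.0906) was less certain, and its call was lost with DESeq2 and when CP+siNC replicate 1 was left out (0.25).

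Of the 7 other MAPK phosphatases, 2 rose, 1 fell and 4 did not pass. DUSP8 rose most of these, with a log2 fold change of 0.74 (SE 0.172), from few counts (30 to 69 in each library). The other calls were DUSP10, with 0.21 (SE 0.0727), and DUSP1, with -0.14 (SE 0.0478). Both were lost with DESeq2 and when CP+siNC replicate 3 (0.19 and -0.077) or CP+siNAT10 replicate 3 (0.18 and -0.089) was left out, so that 1 rose and 0 fell in each of these 3 alternatives. With library sizes alone 4 rose and 0 fell, and leaving out CP+siNC replicate 2 gave 4 that rose. Of 4 tested genes of the other Sprouty and the related SPRED family, 1 rose and 2 fell, the latter SPRED1, with a log2 fold change of -0.38 (SE 0.0797), and SPRED3, with -0.69 (SE 0.108). The gene that rose was SPRED2, with 0.30 (SE 0.0891), and its call was lost when CP+siNC replicate 3 was left out (0.19). Of 11 other genes known to respond to ERK, 2 rose, 4 fell and 5 did not pass. CCND1, which encodes cyclin D1, went from 279.8 ± 6.16 to 105.1 ± 2.51 CPM (SD, n = 3), a log2 fold change of -1.41 (SE 0.0345), and the transcription factors ETV4 and EGR1 fell by 0.78 (SE 0.0888) and 0.43 (SE 0.0990) on the log2 scale. ETV5 fell by 0.13 (SE 0.0498), a call lost in 6 of the 13 alternatives, among them those leaving out CP+siNC replicate 3 (-0.081) or CP+siNAT10 replicate 2 (-0.13) or 3 (-0.13). EPHA4, an ephrin receptor, and FOSL1, a component of AP-1, rose, with log2 fold changes of 1.72 (SE 0.150) and 0.27 (SE 0.0365). With library sizes alone, 4 of the 11 rose. Calls in both directions were common, with 21.8% of all tested genes higher and 22.3% lower.

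**Figure D4:**
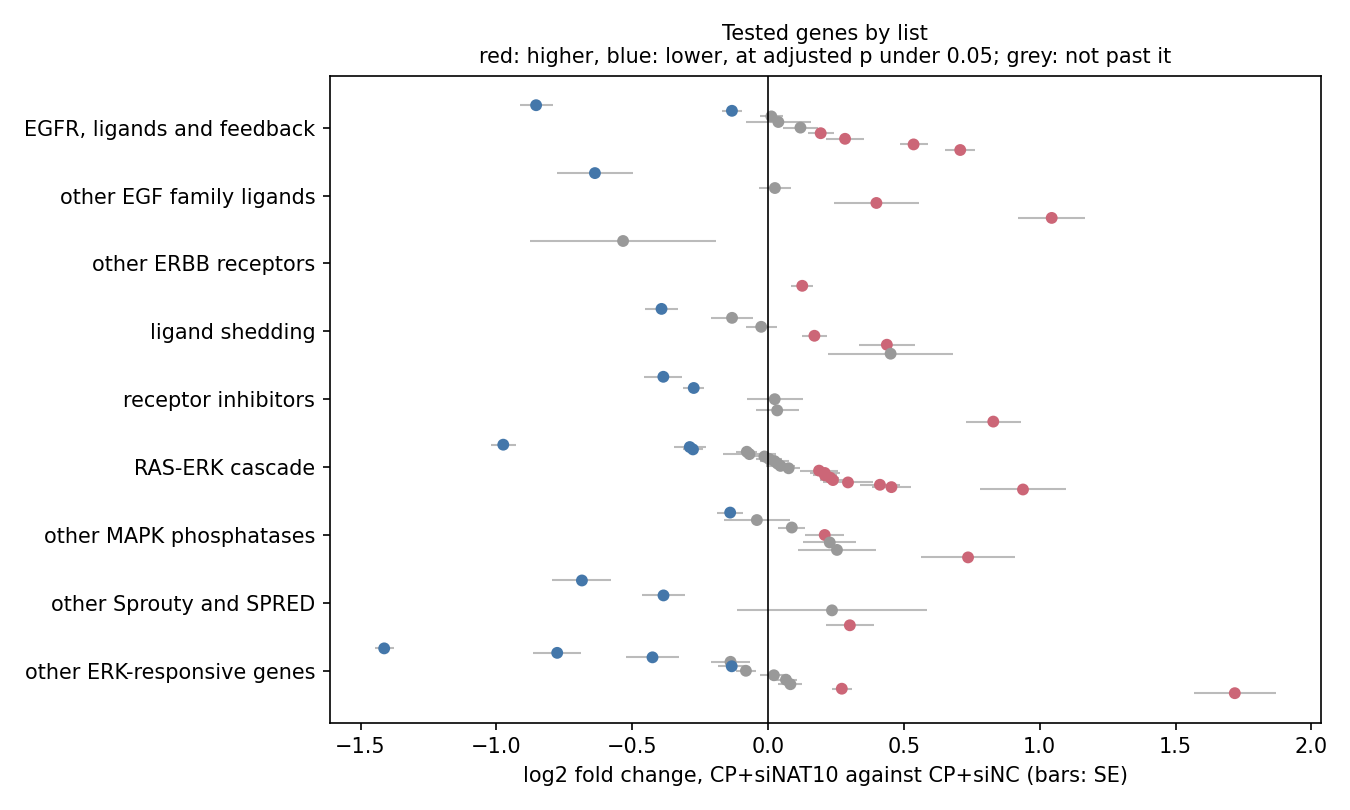
Log2 fold change of CP+siNAT10 against CP+siNC with its SE (horizontal axis) for the 9 tested genes of the receptor, ligands and feedback genes and the 59 tested further genes of the pathway, by list (rows, genes sorted by fold change within a list). Red points were higher and blue points lower at an adjusted p under 0.05, grey points did not pass, and of the 8 lists of further genes the one of other ERBB receptors held a red point and no blue one, while the others held both.

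The 3′ UTRs were looked at on the transcribed strand for 3 heptamers taken from earlier results of these data, namely GACTATC, then ACTATCA, which shares 6 bases with the first, and also CATATTC. They were picked from these same libraries, so the levels of the genes that carry them are no independent result. EREG was the only one of the 10 genes that carried one, in its 3′ UTR on the + strand at chr4:74387734-74387762, shown with the heptamer in capitals: aaggggctatgCATATTCaatgtattgag. Of the tested further genes of the pathway, 15 carried one, of which 7 rose (among them ADAM10, BRAF, CBLB, EPHA4, GAB1 and PTPN11), 4 fell (CBL, CCND1, EGR1 and NRAS) and 4 did not pass. Over all tested genes with an annotated 3′ UTR, 19.7% were higher and 40.5% lower of the 2264 that carried one, and 29.1% were higher and 23.3% lower of the 10821 that did not, so the few carriers of the pathway do not stand for the rest.

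The markers of the cell type were read in the same libraries. Of 18 markers of tubule epithelium, 12 were tested, and the summed level of the 18 was 2161, 2186 and 2124 CPM in CP+siNC and 2097, 2087 and 2116 CPM in CP+siNAT10, led by KRT8. The proximal tubule genes LRP2, CUBN, ANPEP and SLC34A1 were near 0, with at most 8 counts in any library. HNF4A had at most 10 counts, CDH1 at most 2, and AQP1 had 12 to 27 counts in each library. Other proximal tubule genes had more, SLC5A2 with 160 to 291 counts and GGT1 with 553 to 711 counts in each library. SLC5A2 rose (log2 fold change 0.31, SE 0.0850) and GGT1 fell (-0.28, SE 0.0537). Of the 12 tested markers, 4 rose, 3 fell and 5 did not pass, where 21.8% of all tested genes were higher and 22.3% lower. The 5 markers of other nephron segments summed to at most 1.75 CPM in any library, mostly CALB1. The 9 markers of other cell types summed to 230.3, 221.0 and 237.2 CPM in CP+siNC and to 310.8, 294.7 and 292.0 CPM in CP+siNAT10, most of it CD68, a lysosomal gene also expressed outside macrophages. Of these 9, 4 were tested. CD68, COL1A1 and PTPRC rose, where 21.8% of all tested genes did. LUM did not pass, with a log2 fold change of 0.034 (SE 0.096, adjusted p = 0.806 by edgeR). The calls of CD68 and COL1A1 held in all 13 alternatives. PTPRC had 8, 10 and 7 counts in CP+siNC and 10, 29 and 17 counts in CP+siNAT10, a log2 fold change of 0.96 (SE 0.379, adjusted p = 0.0411 by edgeR) that rested mostly on CP+siNAT10 replicate 2. Leaving out that library it was 0.46 and did not pass (adjusted p = 0.404), and the call was also lost with DESeq2 (0.97) and when CP+siNC replicate 1 (0.96), 2 (1.04) or 3 (0.86) was left out. The adjusted p ranged from 0.0115 to 0.404 over 12 alternatives, since PTPRC was not tested where 1 CPM was required. CD3E had at most 10 counts in any library, PECAM1 at most 7, and CDH5 and VWF at most 4. PDGFRB was not tested and was lower in all CP+siNAT10 libraries, with 7, 8 and 6 counts in CP+siNC and 4, 2 and 3 in CP+siNAT10. The part of these markers in the results above was not tested.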

How the data were processed

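RNA of 6 libraries from Cisplatin-treated HK-2 cells was sequenced by the authors after stranded library preparation. The submitters' processing notes name Trimmomatic 0.36, STAR 2.5.3a, featureCounts, Subread 1.5.1, edgeR 3.12.1 and GRCh38. The deposited values are raw counts per gene, with gene lengths. The kit adds molecular identifiers meant to correct for duplicates, but whether the deposited counts were collapsed by them is not stated in the sources used here. For 272 tested genes the deposited length exceeds the deposited span, so gene positions were taken from GENCODE 29, matched by identifier.

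Of 62754 genes, 19874 passed filterByExpr (at least 10 counts, total of 15). Counts were scaled by TMM and compared with edgeR 4.0.16 (quasi-likelihood test, limma 3.58.1, R 4.3.3) over all 6 libraries without a replicate term, with Benjamini-Hochberg adjustment. SE was the log2 fold change over the root of F, and 95% intervals are 1.96 SE. CPM used the TMM-scaled library size, and RPKM also the deposited length. A gene without 10 counts in 3 libraries was called low. The script was tested on simulated counts. Alternatives were RLE, upper quartile and library size scaling, 2 other filters, the replicate block, DESeq2 1.42.0, a test against a fold change of 2, and leaving out each library. The 13 alternatives for single genes and lists are these without the test against 2, which was used for genes past both limits. Exon bases of GENCODE 29 in place of the deposited lengths were tried after seeing the data. The use of the 13 alternatives for genes beyond NAT10 and the 10 genes, and for the lists of further genes, was added after seeing the data. Genes named were the 10, NAT10, those of the lists and the 3 genes nearest in profile to the largest rise and fall. The rule allowed any list gene, the examples were picked after their values were seen, and of the 9 whose calls were lost in an alternative 8 were named. Genes near AREG were chosen by position after their values were seen. The 10 genes and the lists were chosen with earlier results of these data known. Python 3.11.15, numpy 2.4.6, pandas 2.3.3 and matplotlib 3.10.9 were used.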

Additional observations from a re-analysis of the deposited data

How the results depend on the processing

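The calls of NAT10, AREG, EREG, HBEGF, DUSP5, DUSP6 and SPRY4 kept their direction and their side of the threshold in all 13 alternatives, which leave out the test against a fold change of 2. In that edgeR test 0 of the 9 tested genes passed (0 at an unadjusted p under 0.05), nor did NAT10. HBEGF came nearest to losing its call, with log2 fold changes from -0.16 to -0.095 and adjusted p-values up to 0.0499. AREG ranged from 0.66 to 0.77 and DUSP6 from -0.91 to -0.80 on the log2 scale. Leaving out 1 library gave log2 fold changes from -0.027 to 0.042 for EGFR and from -0.083 to 0.13 for TGFA, and the cause of the change of sign was not tested. SPRY2 passed in 1 alternative, without CP+siNAT10 replicate 2. Genes past both limits numbered 464, 711 without a filter, 299 with at least 1 CPM in 3 libraries, and 56 when tested against a fold change of 2. The first 2 differ from 464 in the genes tested, and the last in the hypothesis. With library sizes alone, 57.2% of called genes were higher, against 49.4%. Same-numbered libraries of the 2 groups were no more alike than others (correlations 0.0066, 0.063 and -0.21, against -0.21 to 0.20 for unlike numbers). With 3 libraries per group this cannot settle whether the samples were paired. With the replicate block 8526 genes passed in place of 8771, with 4 of the 10 genes higher and 2 lower as before. Of the 34 calls among further pathway genes, 25 held in all 13 alternatives. The sign of NRG1, which did not pass, turned without 1 library (-0.025 to 0.082). Of the further pathway genes, 12 to 15 were lower and 15 to 25 higher over the alternatives. With no filter, DUSP4 had a log2 fold change of -0.24 (adjusted p = 0.771, edgeR). Where it passed the filter with 1 library left out, the value ran from -0.54 (without CP+siNC replicate 1) to -0.16 (without CP+siNAT10 replicate 1). It did not pass the test in any of these.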
